A study of Mus musculus with 15 samples.

Results

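Inflammatory cytokine and NF-kappaB response genes were examined as a set of 10 genes of the 21938 protein-coding genes annotated on the assembled mouse chromosomes. The set was chosen by name and function, with earlier results of these data known, and not from the values described here. It held the cytokines Tnf, Il1a, Il1b, Il6 and Il12b, the feedback inhibitors Nfkbia and Tnfaip3, the inducible enzymes Nos2 and Ptgs2, and the inflammasome sensor Nlrp3. Each gene was described over a window of its body plus 5 kb upstream, between 7.627 kb for Tnf and 44.468 kb for Nos2 in length.

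NF-kappaB is a family of transcription factors that inhibitor proteins hold in the cytoplasm of resting macrophages. Microbial products and cytokines such as TNF trigger degradation of the inhibitors, and the freed factors enter the nucleus and bind kappaB sites at promoters and enhancers of inflammatory genes. Their targets include their own inhibitors, which end the response. Acetylation of histone H3 at lysine 27 (H3K27ac) marks active promoters and enhancers, and trimethylation at lysine 36 (H3K36me3) marks the bodies of transcribed genes. H3.3 is the variant of histone H3 that is put into chromatin outside of DNA replication.

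The study asked how loss of H3.3 alters chromatin in bone marrow-derived macrophages (BMDMs). Marrow of mice aged 8 to 10 weeks on a C57BL/6 background was grown for 6 to 8 days with L929-conditioned medium, a source of macrophage growth factor, and the protocol named no inflammatory stimulus. Chromatin was profiled by CUT&RUN, which tethers a nuclease to an antibody on chromatin and sequences the DNA that it cuts free. Every library was made from bulk cells, in which a mark in fewer cells and less of a mark per cell cannot be told apart. WT cells carried floxed H3f3a and floxed H3f3b, both sources of H3.3, without Cre. Cells of the conditional knockout (cKO) carried the same floxed alleles and LysM cre/cre, a Cre inserted at the myeloid gene Lyz2. Floxed alleles were thus common to both genotypes. Since this Cre acts as myeloid cells mature, cells that escaped recombination could remain in a cKO culture. H3.3 itself was profiled in BMDMs of mice with an HA tag at H3f3b, so that H3.3 made from H3f3a was not tagged. H3.3-HA was profiled in 2 libraries, and each mark in 2 libraries per genotype, which the labels call biological replicates.

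The deposited lists held 35018 to 61764 enriched regions per library, called from 5365319 to 29988098 tags. A region has a start and an end but no height, so the measure was the length of a window inside called regions. Library cKO H3K27ac replicate 1 had 11.8% of its tags in regions against 17.8 to 24.1% in the other H3K27ac libraries. Library cKO H3K36me3 replicate 1 had 19.3% against 46.5 to 50.2% in the other H3K36me3 libraries. Regions covered 89.6 and 74.8 Mb in WT H3K27ac and 46.2 and 62.0 Mb in cKO H3K27ac. For H3K36me3 they covered 164 and 170 Mb in WT and 90.7 and 163 Mb in cKO. The part of these library differences in the results was not tested. All 7 macrophage markers had regions in 9 of the 10 libraries, and Mertk was at 0 in cKO H3K27ac replicate 1. Erythroid and fibroblast markers were at 0 in all 10 libraries. Neutrophil, T cell, B cell and epithelial markers had no H3K36me3 region, while each of these lists had H3.3-HA regions of 0.901 to 4.156 kb in sum per library. Their summed H3K27ac was 0.501 to 1.113 kb in WT and 1.002 to 1.654 kb in cKO for neutrophil markers (Elane, with Mpo in cKO replicate 1 alone), at most 1.159 kb for B cell and 1.65 kb for epithelial markers, and 0 for T cell markers. Their part in the results was not tested. H3f3a and H3f3b had regions of both marks in cKO, so that these lists do not show the deletion. H3K27ac covered 58.3 and 52.3% of the H3f3b window in WT and 65.2 and 85.5% in cKO. For H3K36me3 it was 5.84 and 7.78% in WT and 21.7 and 24.2% in cKO. At H3f3a, H3K27ac coverage was also longer in cKO, and H3K36me3 coverage overlapped. The study reported that H3f3b deletion varied among cKO samples, from partial to complete.

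The upstream sequences of 4 members are shown because they hold kappaB-like motifs at starts discussed here, and part of a distal element of Nos2 is shown because all H3.3-HA and H3K27ac libraries called it. The letters are from the RefSeq sequence of GRCm38.p6 (mm10), 5′ to 3′ in the direction of transcription. For Tnf (chr17:35202008-35202207, minus strand), Il6 (chr5:30012994-30013113, plus strand), Nfkbia (chr12:55492648-55492767, minus strand) and Tnfaip3 (chr10:19015411-19015440, minus strand), they end at the base before the RefSeq start site. The Nos2 stretch (chr11:78916420-78916614, plus strand) lies -4367 to -4173 bp from the gene start. Capitals mark the kappaB-like decamer, GGG and CC separated by any 5 bases, on either strand, and in the Nos2 stretch also TGANTCA, the core of an AP-1 site.
Tnf: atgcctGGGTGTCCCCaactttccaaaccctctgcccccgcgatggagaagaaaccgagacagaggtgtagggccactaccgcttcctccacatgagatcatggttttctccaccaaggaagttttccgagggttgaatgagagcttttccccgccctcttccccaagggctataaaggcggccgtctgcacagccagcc
Il6: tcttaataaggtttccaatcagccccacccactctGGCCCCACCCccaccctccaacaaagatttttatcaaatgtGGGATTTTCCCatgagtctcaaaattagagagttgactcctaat
Nfkbia: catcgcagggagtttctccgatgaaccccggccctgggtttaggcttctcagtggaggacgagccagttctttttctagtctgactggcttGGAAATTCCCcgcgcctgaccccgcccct
Tnfaip3: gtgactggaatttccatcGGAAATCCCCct
Nos2 element: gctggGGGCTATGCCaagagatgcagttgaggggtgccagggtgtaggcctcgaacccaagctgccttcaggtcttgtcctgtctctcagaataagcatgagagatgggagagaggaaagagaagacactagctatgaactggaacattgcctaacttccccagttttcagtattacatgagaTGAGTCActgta

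Of the 9 members with a promoter sequence, 6 held the kappaB-like decamer within 250 bp upstream of the start (Tnf, Il6, Nfkbia, Tnfaip3, Ptgs2 and Nlrp3), a motif found in 45.8% of the 32851 mouse promoters of this length. The stricter NF-kappaB consensus, whose matches are all kappaB-like decamers as well, was in 4 (Il6, Nfkbia, Tnfaip3 and Nlrp3), against 3.9% of promoters. In Nfkbia its match lay -29 to -20 bp from the start and in Il6 -44 to -35 bp. In the Il6 sequence the run of 11 capitals joins a pair of overlapping matches on opposite strands. Il1a, Il6 and Tnfaip3 held TGANTCA (6.75% of promoters). Tnf, Il1a, Il1b and Tnfaip3 held the TATA box TATAAA (12.4% of promoters). These are matches of letters and not measured binding sites.

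The 10 genes fell along a wide range of coverage, shown in the map of percent covered by gene and library. Nlrp3, Tnfaip3 and Nfkbia had regions of H3.3-HA and of both marks in every library of the series. Tnf had H3.3-HA and H3K36me3 regions in every library but no H3K27ac region in cKO. Nos2 had H3.3-HA and H3K27ac regions in every such library and no H3K36me3 region. The interleukin genes and Ptgs2 had at most isolated regions of H3K27ac.

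**Figure D1:**
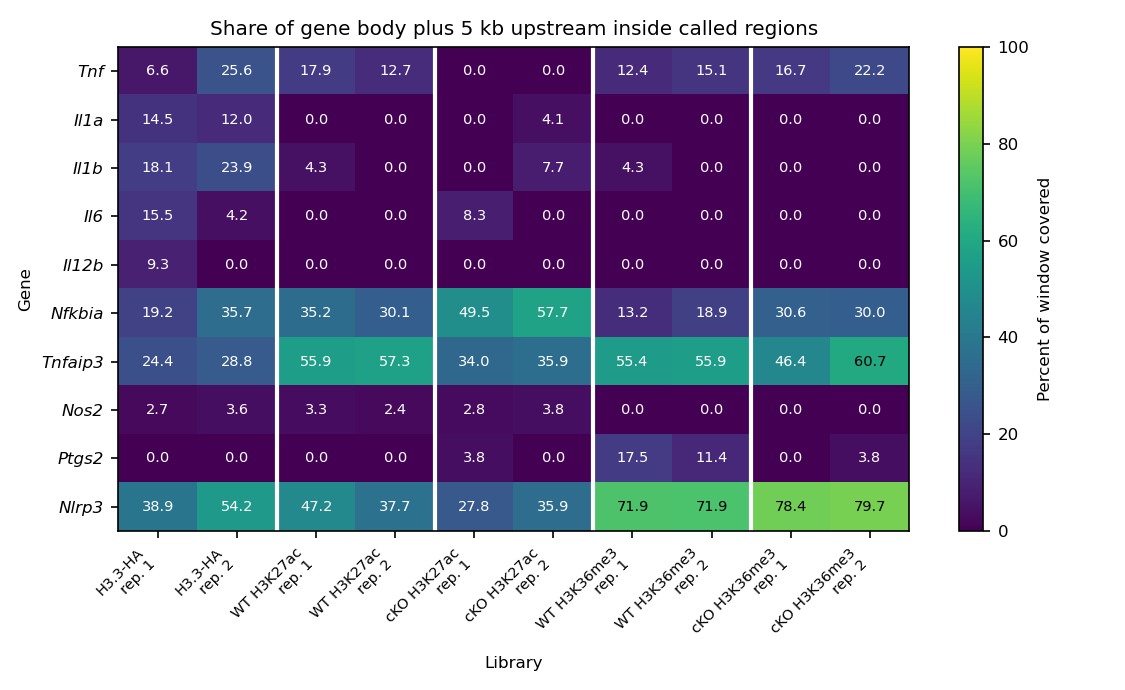
Heat map of the percent of each gene's window (body plus 5 kb upstream) inside called regions, with genes as rows and the 10 libraries as columns, and the value printed in each cell. Nlrp3 had the most H3K36me3 coverage in every library, and Il12b was at 0 in all libraries but H3.3-HA replicate 1.

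H3.3-HA was called in both libraries at 8 of the 10 members, where 44.2% of all protein-coding genes met this rule. The exceptions were Il12b and Ptgs2. Nlrp3, which encodes the sensor that assembles the caspase-activating inflammasome, had the longest H3.3-HA coverage among the members, 11811 and 16475 bp in replicates 1 and 2. Tnfaip3, whose product A20 removes ubiquitin chains from signaling proteins, had 4828 and 5686 bp. Nfkbia, which encodes the inhibitor I kappa B alpha, had 1581 and 2943 bp. At Nfkbia these regions lay upstream of the start, from -966 to -59 bp in replicate 1 and from -1665 to -313 bp in replicate 2, and again over the 3′ part of the gene.

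Among the cytokine genes, the H3.3-HA regions of Il1a, Il1b and Il6 lay where WT cells had no shared H3K27ac. At Il1b, which encodes a secreted fever-inducing cytokine, the covered length was 2096 and 2764 bp, from about -2911 to -816 bp and from -3596 to -833 bp. At Il1a, its neighbour on chromosome 2 and a cytokine released from damaged cells, it was 2222 and 1839 bp, with the upstream region at -1591 to -158 bp and -2134 to -296 bp. At Il6, an acute-phase cytokine, it was 1842 and 501 bp. Both Il6 libraries covered the gene start and the promoter stretch with the kappaB match printed above. Only Il6 and Nlrp3 of the members had H3.3-HA over the gene start in both libraries, a rule met by 2.9% of all genes. Tnf, the gene of the cytokine that gives the pathway its best-known input, had 501 and 1954 bp, with the shared part in its 3′ end. Il12b, which encodes a subunit of cytokines that steer T cells, had 1761 bp in replicate 1 and none in replicate 2. Nos2, the inducible nitric oxide synthase, had 1180 and 1599 bp. Ptgs2, the inducible cyclooxygenase of prostaglandin synthesis, had none in either library. In relative terms the replicates differed most at Il12b, Il6 and Tnf, and the order of these low genes is not resolved by 2 libraries.

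Bases with H3.3-HA in both libraries were compared with bases marked in both WT libraries. The members held 18359 such H3.3-HA bases, of which 57.2% were also in H3K27ac and 44.4% in H3K36me3. Over all protein-coding genes the shares were 51.9% and 23.4%. The shares varied among the members. At Tnf, all 501 bp were in both marks. At Nos2, all 818 bp were in H3K27ac and none in H3K36me3. At Tnfaip3 96.9% of 3434 bp were in H3K27ac, at Nlrp3 59.8% of 8661 bp and at Nfkbia 50.7% of 1327 bp. Il1a (1296 bp), Il1b (2079 bp) and Il6 (243 bp) had no shared base with either mark. The HA libraries came from other mice than the WT libraries and were sequenced less deeply, with 6951296 and 5365319 tags.

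WT and cKO libraries were then compared for H3K27ac. Of the 10 members, 9 had an H3K27ac region in at least 1 of the 4 libraries, Il12b being the exception (58.2% of all genes had such a region). Regions of the 4 libraries were merged, and a merged region was called lost when both WT and neither cKO library touched it, and gained in the opposite case. A lost region was found at 2 members, Tnf and Tnfaip3, where 21.7% of all genes and 37.3% of the genes with the mark had one. No member had a gained region, against 10.1% of all genes and 17.3% of those with the mark. Covered length was above WT in both cKO libraries at Nfkbia (10.1% of all genes, 17.4% of those with the mark) and below WT in both at Tnf, Tnfaip3 and Nlrp3 (22.3% and 38.2%). With 2 libraries against 2, a two-sided exact permutation test cannot give a p below 0.333, so no single difference could pass the usual threshold.

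Nfkbia had longer H3K27ac coverage in cKO, and the added length shared by both cKO libraries lay over its start. H3K27ac covered 2901 and 2476 bp in WT and 4080 and 4753 bp in cKO. Both cKO libraries thus lay above both WT libraries. As a share of the window this was 32.6% ± 3.65 (WT) and 53.6% ± 5.78 (cKO, mean ± SD, n = 2 each), 1.64-fold (exact permutation p = 0.333). WT regions began 337 and 611 bp downstream of the gene start and ran past or close to the end of the gene. The cKO regions began at -842 and -1014 bp. As a result 1179 bp, from -842 to 336 bp, was inside both cKO and neither WT region, and this stretch includes the printed Nfkbia promoter with its kappaB match.

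Tnfaip3 had a similar extension at its start together with a reduced coverage of its body. H3K27ac covered 11047 and 11317 bp in WT and 6709 and 7098 bp in cKO, with no overlap between the groups. As a share of the window this was 56.6% ± 0.967 (WT) and 35.0% ± 1.39 (cKO, mean ± SD, n = 2 each), 0.617-fold (exact permutation p = 0.333). Per Mb covered by each library the difference was small, 137 bp in WT and 130 bp in cKO. On this scale the groups overlapped (exact permutation p = 0.667). Bases in both WT and neither cKO library summed to 4561 bp, in 5 stretches. The longest, 2219 bp at 12424 to 14642 bp from the start, lies near the 3′ end of the gene, and the next, 1160 bp at 3967 to 5126 bp, lies in the first part of the body. The 3′ stretch was not called lost, because the WT replicate 1 region there ran on beyond the gene and touched cKO regions outside it. The region that was called lost measured 713 bp and lay in an intron (chr10:19006104-19006816). At the start, 712 bp from -299 to 412 bp was inside both cKO and neither WT region.

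Nfkbia and Tnfaip3 were the members with H3K27ac over the gene start in both cKO and neither WT library. This held for 11.8% of all genes and 20.3% of those with the mark, and the opposite pattern for 1.19% and 2.05%. The RefSeq start of Tnfaip3 lies 247 bp inside the GENCODE gene, and the calls were the same there. A further RefSeq start inside the gene was covered in all 4 libraries. When a region within 500 bp of the start was counted as well, no member had the pattern, since a WT region began within that distance at both genes. The share of all genes under this wider rule was not counted. Il6 and Ptgs2 had H3K27ac over the start in cKO replicate 1 and not in the other 3 libraries.

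**Figure D2:**
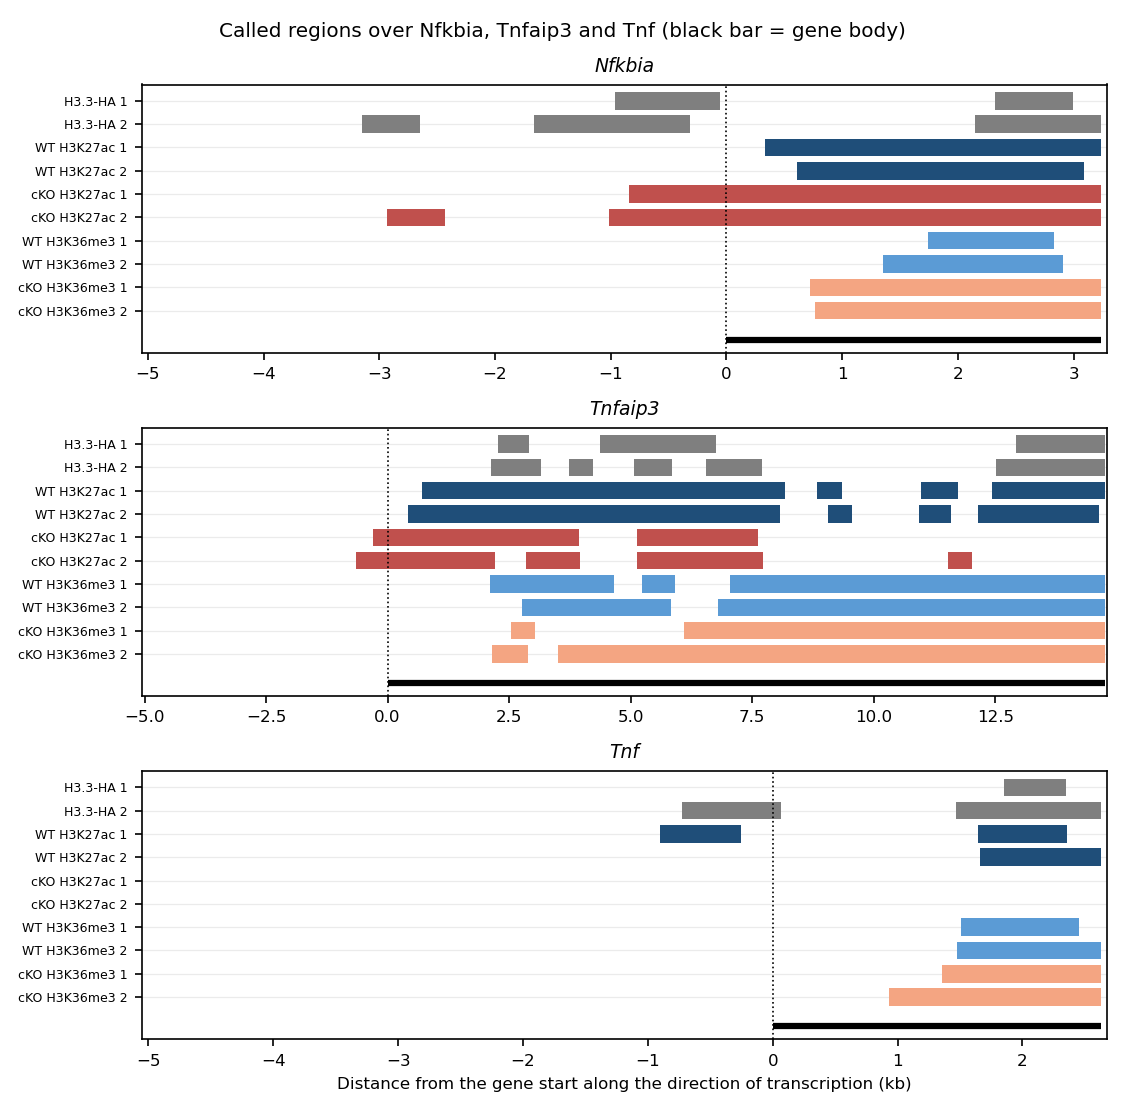
Called regions (colored bars) over Nfkbia, Tnfaip3 and Tnf in each of the 10 libraries, by distance from the gene start in kb along the direction of transcription, cut at the window ends, with the gene body in black and the start as a dotted line. At Nfkbia and Tnfaip3 the H3K27ac bars of cKO cross the start and those of WT begin 337 to 714 bp downstream of it, and Tnf has no cKO H3K27ac bar.

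Within its window, Tnf had H3K27ac in WT only. It covered 1368 and 970 bp in WT and 0 bp in both cKO libraries, or 15.3% ± 3.69 of the window in WT (SD, n = 2, exact permutation p = 0.333). Both WT libraries had a region near the 3′ end of the gene. The merged, lost region (chr17:35199238-35200361, 1124 bp) held 767 bp of 3′ UTR, 214 bp of coding sequence and 143 bp beyond the gene. WT replicate 1 also had a region upstream, at -902 to -250 bp, in a window that holds the adjacent cytokine gene Lta. Neither genotype had H3K27ac over the Tnf start.

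Nlrp3 had broad H3K27ac in all 4 libraries. It covered 14352 and 11457 bp in WT and 8457 and 10921 bp in cKO, so that the groups did not overlap but WT replicate 2 and cKO replicate 2 lay close to each other. As a share of the window this was 42.5% ± 6.74 (WT) and 31.9% ± 5.73 (cKO, mean ± SD, n = 2 each, exact permutation p = 0.333). Per Mb covered by each library the direction turned, with 157 bp in WT and 180 bp in cKO. A region of 5078 to 6148 bp crossed the gene start in all 4 libraries. Stretches in both WT and neither cKO library summed to 563 bp and stretches in both cKO and neither WT library to 440 bp.

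At the other members H3K27ac was short or seen in single libraries. Nos2 had 1450 and 1074 bp in WT and 1223 and 1689 bp in cKO, and the groups overlapped (exact permutation p = 0.667). This coverage was a single region per library far upstream of the start. The part found in every H3.3-HA and H3K27ac library (chr11:78916272-78917089, 818 bp, -4515 to -3698 bp) contains the printed stretch with its kappaB-like and TGANTCA matches. The motif shares given above are for promoters of 250 bp, and none was counted for elements of this length. Il1b had 501 and 0 bp in WT and 0 and 888 bp in cKO, both regions lying upstream and overlapping its H3.3-HA regions. Il1a had 632 bp in cKO replicate 2 alone, within an intron. Il6 had 983 bp and Ptgs2 501 bp in cKO replicate 1 alone. Il12b had none. At none of these 6 genes did the WT and cKO libraries separate.

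**Figure D3:**
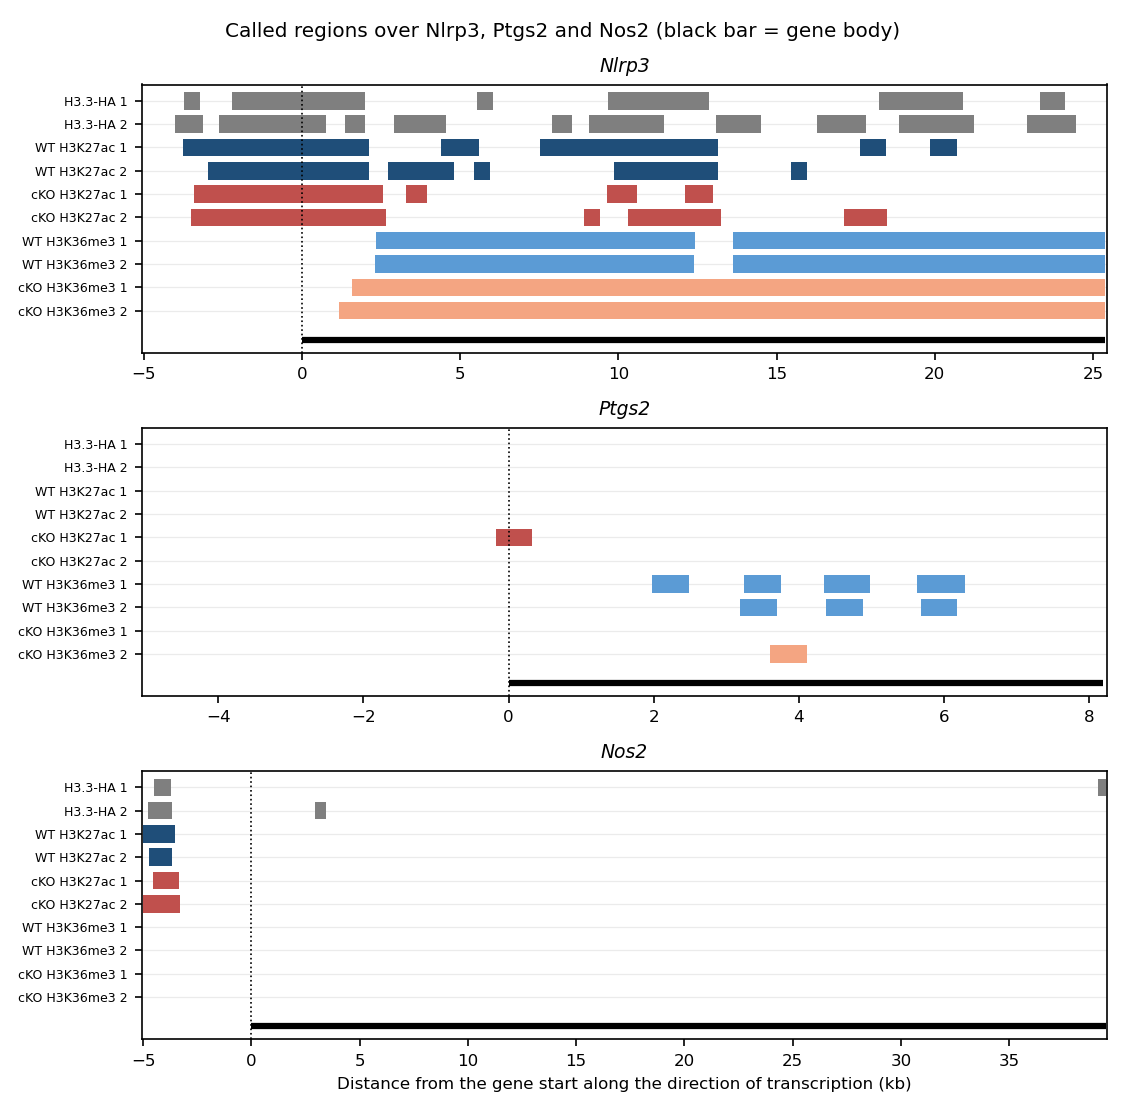
Called regions over Nlrp3, Ptgs2 and Nos2 in the 10 libraries, by distance from the gene start in kb, with the gene body in black and the start as a dotted line. Nlrp3 has H3K27ac across its start in all 4 libraries, Nos2 has H3.3-HA and H3K27ac at about -4 kb in all 6 libraries, and the H3K36me3 bars of Ptgs2 are mostly in WT.

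Summed over the members, H3K27ac covered 31619 and 27294 bp in WT and 21953 and 25981 bp in cKO, a difference of -5489.5 bp (exact permutation p = 0.333). Per Mb covered by each library the difference was 88.5 bp in favor of cKO. The median difference between cKO and WT was 1.67 percentage points of the window over the 9 members with the mark and -1.02 over the 12767 genes with it. The sum and the median differ in sign: 6 members had the higher mean in cKO and 3 (Tnf, Tnfaip3 and Nlrp3) the lower, and the latter include the 2 largest differences in length, -4278.5 bp at Tnfaip3 and -3215.5 bp at Nlrp3. Over the 12767 genes with the mark, 4832 had the higher mean in cKO and 7852 the lower. Of the 6 members with the higher mean, only Nfkbia had both cKO libraries above WT, and Il1a, Il6 and Ptgs2 rested on a single cKO library. The members' median is the value of Il1b, which had regions in WT replicate 1 and cKO replicate 2 alone. The medians were not tested. Adjacent or antisense transcripts lie in the windows of Tnf, Il1a, Il1b, Il6 and Ptgs2, and a region there cannot be assigned to one of them.

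H3K36me3 was called at 6 members (Tnf, Il1b, Nfkbia, Tnfaip3, Ptgs2 and Nlrp3), and at 54.6% of all genes. A lost region was found at 1 member, Ptgs2, against 12.9% of all genes and 23.6% of the genes with the mark. No member had a gained region (4.62% and 8.47%). Covered length was above WT in both cKO libraries at Tnf, Nfkbia and Nlrp3, or 3 of the 6 members with the mark, where 4.28% of all genes and 7.85% of those with the mark were. It was below WT in both at Ptgs2, where 20.6% and 37.7% were. No member had H3K36me3 over the gene start in both cKO and neither WT library (0.141% of all genes, 0.259% of those with the mark) or the opposite (0.15% and 0.276%).

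At Nfkbia H3K36me3 covered 1090 and 1553 bp in WT and 2518 and 2469 bp in cKO, with no overlap. As a share of the window this was 16.0% ± 3.97 (WT) and 30.3% ± 0.421 (cKO, mean ± SD, n = 2 each), 1.89-fold (exact permutation p = 0.333). The bases in both cKO and neither WT library, 916 bp, lay on both sides of the WT regions, 583 bp nearer to the start and 333 bp at the end of the gene. Nfkbia was the one member with longer coverage of both marks in both cKO libraries. The share of all genes with this joint pattern was not counted, so nothing is concluded from it.

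At Nlrp3 H3K36me3 covered 21851 and 21839 bp in WT and 23810 and 24206 bp in cKO. As a share of the window this was 71.9% ± 0.0279 (WT) and 79.0% ± 0.921 (cKO, mean ± SD, n = 2 each, exact permutation p = 0.333). In WT a gap without the mark split the body into a pair of regions, and in cKO a single region ran through. The added bases summed to 1938 bp, 1198 bp of them in this gap at 12431 to 13628 bp from the start. At Tnf the mark covered 949 and 1149 bp in WT and 1273 and 1697 bp in cKO, 13.8% ± 1.85 and 19.5% ± 3.93 of the window (SD, n = 2 each, exact permutation p = 0.333). Only 124 bp were inside both cKO and neither WT library. All 4 libraries had the mark over the 3′ stretch of Tnf at which H3K27ac was called in WT only.

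At Ptgs2 H3K36me3 covered 2310 and 1503 bp in WT and 0 and 501 bp in cKO. As a share of the window this was 14.4% ± 4.32 (WT) and 1.90% ± 2.68 (cKO, mean ± SD, n = 2 each, exact permutation p = 0.333). The WT regions were 501 to 664 bp wide and lay in the body between 1983 and 6296 bp from the start. The pair of lost regions (chr1:150104375-150105018 and chr1:150105664-150106327) took in coding exons, introns and the first part of the 3′ UTR. Ptgs2 had no H3K27ac in WT and no H3.3-HA in either library. Tnfaip3 had 10938 and 11038 bp in WT and 9154 and 11990 bp in cKO, which overlapped (exact permutation p = 1). Per Mb covered by each library its mean was higher in cKO, by 21.3 bp. Il1b had a single region of 501 bp in WT replicate 1, and Il1a, Il6, Il12b and Nos2 had no H3K36me3 region in any library.

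**Figure D4:**
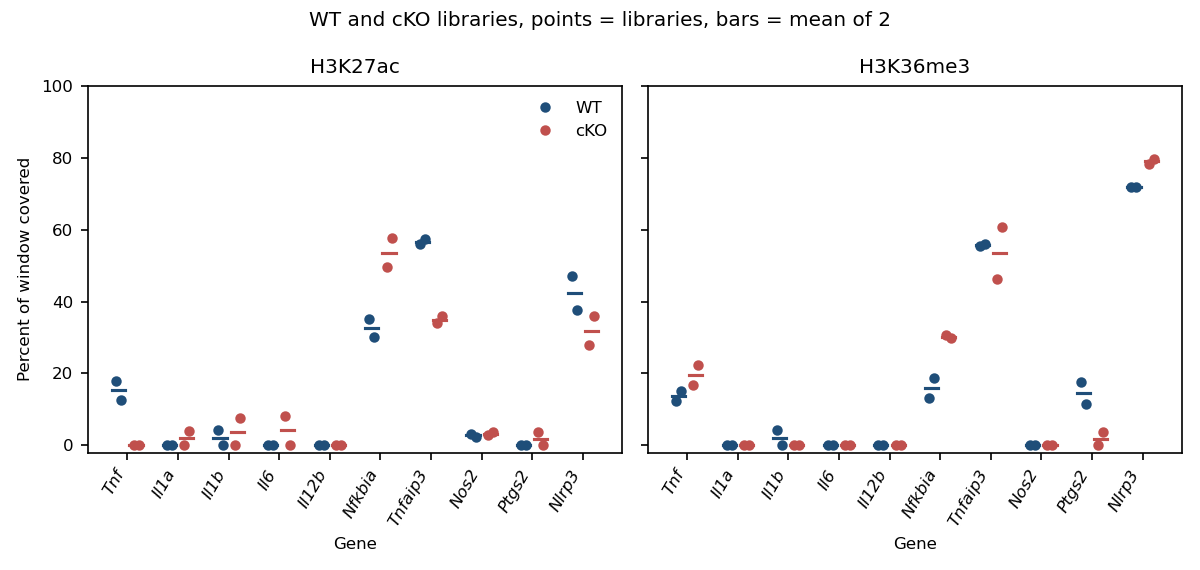
Percent of each gene's window inside called H3K27ac (left) and H3K36me3 (right) regions in WT (blue) and cKO (red), with each point a library and each bar the mean of 2. For H3K27ac the cKO points lie above the WT points at Nfkbia and below them at Tnf, Tnfaip3 and Nlrp3, and for H3K36me3 above them at Tnf, Nfkbia and Nlrp3 and below them at Ptgs2.

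Summed over the members, H3K36me3 covered 37639 and 37082 bp in WT and 36755 and 40863 bp in cKO, a difference of 1448.5 bp (exact permutation p = 1). Per Mb covered by each library the difference was 104 bp in favor of cKO (exact permutation p = 0.333). Unscaled and without cKO replicate 2, the difference was -605.5 bp. The median difference was 1.81 percentage points over the 6 members and -4.99 over the 11975 genes with the mark. These medians describe few genes and were not tested.

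**Figure D5:**
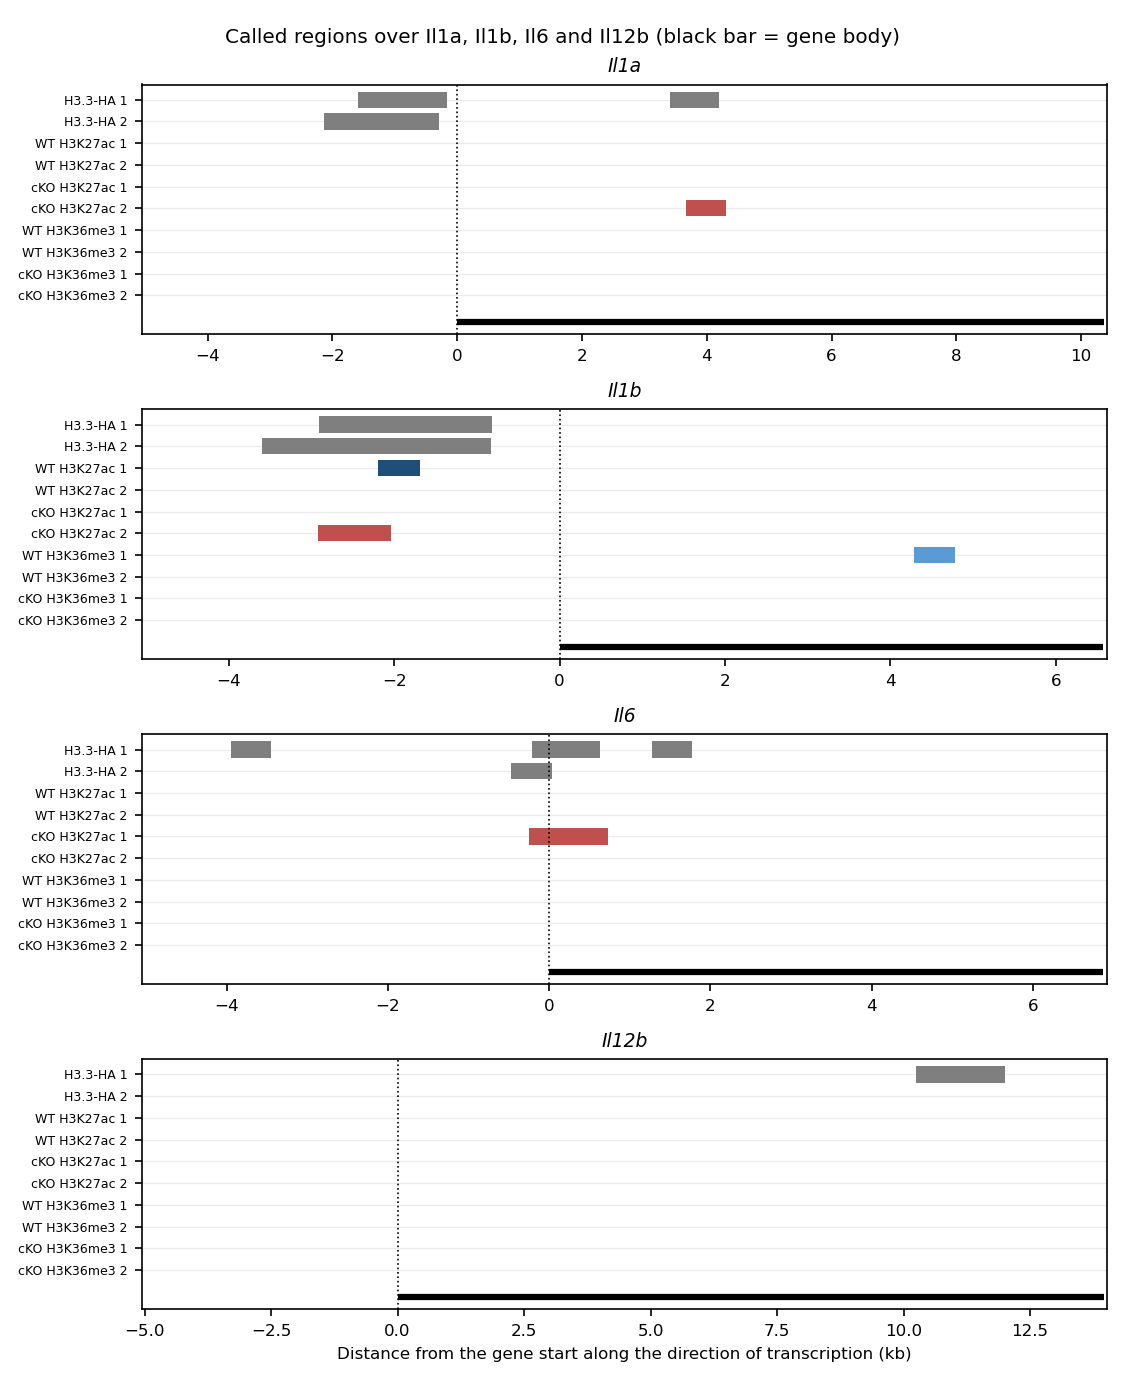
Called regions over Il1a, Il1b, Il6 and Il12b in the 10 libraries, by distance from the gene start in kb, with the gene body in black and the start as a dotted line. H3.3-HA lies upstream of Il1a and Il1b and over the start of Il6 in both libraries, and no H3K27ac or H3K36me3 bar is shared by both libraries of a group.

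A further 52 genes of the NF-kappaB pathway were set beside the members, namely its subunits, inhibitors, kinases, receptors and other targets, all of which matched the annotation. H3.3-HA was called in both libraries at 47 of them, or 90.4%, against 44.2% of all genes. H3K27ac was called at 48, of which 10 had a gained region and 14 a lost one, 20.8% and 29.2% of those with the mark. The background among genes with the mark was 17.3% and 37.3%. H3K27ac over the gene start in both cKO and neither WT library was found at 10 (Nfkb2, Rela, Relb, Nfkbib, Map3k7, Tnfaip2, Tnfaip8, Cyld, Traf2 and Junb) and the opposite pattern at none. These 10 were 20.8% of the listed genes with the mark, against 20.3% over all genes with it. The median difference was -0.31 percentage points. H3K36me3 was called at 44, of which 2 had a gained and 9 a lost region, 4.55% and 20.5%, against 8.47% and 23.6% of all genes with the mark. The median difference was -3.83 percentage points.

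For the list, the full lengths of all gained or all lost regions touching a window were summed, without scaling to gene length. A region touching a window can belong to another gene, and none was assigned here. Gained H3K27ac length was greatest at Il23a, a cytokine subunit that pairs with the product of Il12b (3107 bp). Next were Nfkb2, an NF-kappaB subunit (2713 bp), and Gsdmd, the pore-forming protein cleaved by inflammatory caspases (2371 bp). Nfkb2 had no H3K27ac in WT and 20.6 and 18.2% of its window in cKO. Lost H3K27ac length was greatest at Nfkb1, the p50 subunit gene (10188 bp), at Map3k7, which encodes the kinase TAK1 (6427 bp), and at Rel, the c-Rel subunit gene (4939 bp). At Nfkb1 the mark covered 23.4 and 20.2% of the window in WT and 11.2 and 14.6% in cKO. Gained H3K36me3 was found only at Zfp36, which encodes an mRNA-destabilizing protein (2571 bp), and at Tnfaip8 (508 bp). At Zfp36 H3K36me3 was absent in WT and covered 7.76 and 30.4% in cKO, and H3K27ac covered 35.4 and 40.1% in WT and 74.5 and 89.8% in cKO. Lost H3K36me3 length was greatest at Tab2, an adaptor of TAK1 (4324 bp), Map3k7 (2421 bp) and Nfkb1 (2226 bp). By the mean absolute difference over the 10 libraries, the genes nearest to the median profile of the members were Ptges, Cd40 and Il1r1, at 3.06 to 4.22 percentage points.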

How the data were processed

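CUT&RUN libraries of mouse BMDMs were analyzed as region lists, 2 libraries in each of 5 groups. The 5 IgG samples were not analysed by themselves, and IgG enters only through the authors' calling of regions. The members and the gene lists were chosen with earlier results of these data known.

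The authors used Bowtie2 (local alignment, build mm10) and HOMER for calling regions, separately for each library, without pooling replicates. Per the file headers, peaks of 500 bp with a minimum distance of 1000 bp and a Poisson p of 1e-03 were required to exceed the IgG control 4-fold at a Poisson p of 1e-04 and were stitched into regions. The deposited start and end of each region are positions in bp, a measure of length only. The deposited score is constant and was not used, so that a region missed in a library can differ little in signal from one called. Headers named 3 control directories, one for each of H3.3-HA, WT and cKO, and a difference of genotype includes that of its control. A yeast spike-in was used in the assay, and no scaling to it enters the lists. The study's own test of differential binding used read counts, which were not used here.

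Genes came from GENCODE M21 (21938 protein-coding genes on chromosomes 1 to 19, X and Y), and coordinates are 1-based. Overlap required at least 1 bp. Gains, losses and lengths were computed with Python 3.11.15 and numpy 2.4.6, tested on simulated data with planted regions. Groups were compared by two-sided exact permutation tests, whose smallest p is 0.333, and read against the percent of all genes with the same pattern. All members were named. Of the pathway list, written from general knowledge, those with the 3 greatest summed gained and 3 greatest summed lost lengths of each mark were named. The 3 nearest to the members' median profile were named as well. Counts over promoters used 250 bp upstream of RefSeq starts. Tag totals of 5365319 to 29988098 per library limit the precision.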

Additional observations from a re-analysis of the deposited data

How the results depend on the processing

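The count of members with a lost H3K27ac region, 2, was 1 with regions of 1 kb or longer, 1 with the widest regions in lists of equal number and 0 after joining regions at most 1 kb apart, and 2 to 3 with a library left out. With regions of 1 kb or longer neither Tnf nor Tnfaip3 kept its call, and the member counted was Nlrp3. The count with a lost H3K36me3 region, 1, was 0 with regions of 1 kb or longer, 0 after joining, and 1 to 2 with a library left out. The count with a gained H3K27ac region, 0, was 1 with 20 kb on both sides and 0 to 2 with a library left out. Members with H3.3-HA in both libraries were 4 with regions of 1 kb or longer, against 8, and 8 to 9 with a library left out. Members with H3K27ac over the start in cKO only, a count added after seeing the data, were 0 when a region within 500 bp of the start sufficed and 2 to 4 with a library left out. The share of all genes under each alternative was not counted, so nothing is concluded about the members from these changes in count. The summed H3K27ac difference turned to 88.5 bp per Mb covered, and was -7652 to -3327 bp with a library left out. The summed H3K36me3 difference turned to -763 bp after joining, and was -605.5 to 3502.5 bp with a library left out. With 20 kb on both sides the difference in percentage points was -0.28 for H3K27ac at Il1a and 0.0621 for H3K36me3 at Tnfaip3. Per Mb covered it was 23.0 bp for H3K27ac at Nlrp3 and 21.3 bp for H3K36me3 at Tnfaip3. Leaving out a library also turned it for H3K27ac at Il1b (-2.17 without cKO replicate 2 to 5.51 without cKO replicate 1, and -0.493 without WT replicate 2) and at Nos2 (-0.0877 without cKO replicate 2 to 0.960 without cKO replicate 1), and for H3K36me3 at Tnfaip3 (-9.29 without cKO replicate 2 to 5.07 without cKO replicate 1). Of 15 pairs of member and mark with a region, 6 had 1 direction and a region under all alternatives run (Tnf, Nfkbia and Tnfaip3 for H3K27ac and Tnf, Nfkbia and Nlrp3 for H3K36me3). Direction here is the sign of the difference in means, and the groups could still overlap, as for H3K27ac at Tnfaip3 per Mb covered. A further 4 (Il6 and Ptgs2 for H3K27ac, Il1b and Ptgs2 for H3K36me3) had no region left, and so no difference, with regions of 1 kb or longer, and all of these but Ptgs2 H3K36me3 also without the 1 library that held their region. The cause of these changes was not tested.

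Replicate numbers are shared by the WT and cKO groups, but only 2 pairs exist, and deviations of same-numbered libraries correlated at -0.10 across genes for H3K27ac and 0.10 for H3K36me3, so the numbers were not taken to pair the libraries. With a replicate block the summed differences were -5489.5 bp (exact sign-flip permutation p = 0.5, the smallest this design allows) and 1448.5 bp (permutation p = 1), with 2 and 1 members with a lost and 0 with a gained region. With crossed numbers, tried after seeing the data, the counts of calls cannot change and the permutation p-values were again 0.5 and 1.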

Other observations

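Within 20 kb on both sides of the gene, outside the window described above, cytokine genes with little H3K27ac of their own had regions nearby. Around Il1b the flanks held 1586 and 1596 bp of H3K27ac in WT and 1881 and 2451 bp in cKO, and around Il1a 1848 and 1692 bp in WT and 973 and 1654 bp in cKO. Around Il6 they held 709 and 646 bp in WT and 627 and 1217 bp in cKO. Around Tnf, which had no cKO H3K27ac region in its window, the flanks held 13544 and 11866 bp in WT and 9560 and 12081 bp in cKO. The groups overlapped at Il6 and Tnf. Both cKO libraries lay above WT at Il1b and below WT at Il1a, where the nearest libraries, 1692 bp in WT and 1654 bp in cKO, were close. The share of all genes whose flanks separate in this way was not counted, so nothing is concluded from these separations. Around Il12b only WT replicate 2 had H3K27ac, 501 bp, and H3.3-HA covered 1687 and 931 bp. Around Ptgs2 there was no H3.3-HA in either library and 501 bp of H3K27ac in cKO replicate 1 alone. Flanks of 35000 bp in all per gene can hold elements of other genes, and none was assigned here.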
